A study of Mus musculus with 6 samples.

Results

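The promoters described here belong to mouse protein-coding genes whose annotated transcripts start at places at least 10 kb apart. Each start of a protein-coding transcript in GENCODE M21 (genome build GRCm38) was given a window of 1 kb on either side, and starts under 2 kb apart shared 1 merged window. A gene was kept where 2 windows at least 10 kb apart each held 20 or more cut sites summed over 6 libraries, a cut site being either end of a deduplicated ATAC-seq fragment, and Trp63 was left out. The rule kept 3566 of 21853 protein-coding genes, with 9497 of 30797 windows, of which 9436 held 20 or more cut sites. The median 2 kb tile of the genome held 41 cut sites, so a window could pass this rule at the background of the genome. The gene just inside the rule had 20 cut sites in its second window, the gene just outside had 19, and 494 members had 20 to 40.

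The libraries were made by single-cell ATAC-seq, in which the Tn5 transposase cuts accessible DNA in droplet-barcoded nuclei. All mice carried Krt5CreER and Rosa26 LSL-YFP/LSL-YFP, alleles in which the Krt5 promoter drives an inducible Cre recombinase that switches on YFP, so that YFP marks Krt5-expressing horizontal basal cells and the cells derived from them. YFP-positive cells that excluded propidium iodide were sorted from the dorsal olfactory epithelium. One group of 3 libraries came from uninjured mice and the other group of 3 from mice 24 h after an intraperitoneal injection of methimazole, a drug that destroys most of the olfactory epithelium and spares the basal cells. In both groups the mice of replicate 1 were 8 weeks old, those of replicate 2 were 6 weeks old and those of replicate 3 were 6 to 7 weeks old.

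A gene with more than 1 promoter can make transcripts that differ in their first exon, and often proteins that differ at their amino terminus. CpG-rich promoters are open in most cell types, whereas CpG-poor promoters are more often open in some cell types and closed in others. An open window shows accessible DNA near an annotated start and does not measure transcription from it. AP-1, a dimer of Fos and Jun proteins, is a transcription factor that epithelial cells induce after injury, and it binds the letters TGANTCA.

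The comparison asked which of a gene's promoters gained or lost accessibility 24 h after injury, and 4 stretches of sequence show the kinds of window it turned on. In Smurf1, which encodes an E3 ubiquitin ligase acting on Smad proteins, the stretch around the summit of the window that gained cut sites lies at chr5:144898441-144898740 on the minus strand, from -746 to -447 bases from the annotated start. The stretch around the summit of its other window, whose change was not called, lies at chr5:144965141-144965440 on the minus strand. In Nadk, which encodes NAD kinase, the stretch printed is the part of the gaining window that ends at the annotated start, just before its summit, at chr4:155582401-155582494 on the plus strand. In Ndel1, which encodes a partner of the motor protein dynein, the printed stretch also ends at the annotated start, at chr11:68871859-68872130 on the minus strand. Sequences are from GRCm38, 5′ to 3′ on the strand of the gene, and capitals mark matches to TGANTCA, a motif that reads the same on both strands.
Smurf1 gaining window: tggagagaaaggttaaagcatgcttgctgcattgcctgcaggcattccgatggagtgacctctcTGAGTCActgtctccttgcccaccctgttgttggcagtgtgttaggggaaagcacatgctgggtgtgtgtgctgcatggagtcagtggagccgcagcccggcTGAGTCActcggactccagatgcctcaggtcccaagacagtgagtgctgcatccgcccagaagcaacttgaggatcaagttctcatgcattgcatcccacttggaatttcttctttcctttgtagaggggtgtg
Smurf1 other window: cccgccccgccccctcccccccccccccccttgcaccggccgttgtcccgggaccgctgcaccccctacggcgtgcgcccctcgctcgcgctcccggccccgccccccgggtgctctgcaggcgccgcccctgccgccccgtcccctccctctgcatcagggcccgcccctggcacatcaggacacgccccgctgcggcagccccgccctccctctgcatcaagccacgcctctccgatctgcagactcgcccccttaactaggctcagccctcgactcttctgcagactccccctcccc
Nadk gaining window: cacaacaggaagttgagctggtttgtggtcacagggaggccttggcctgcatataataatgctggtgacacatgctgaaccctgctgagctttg
Ndel1 gaining window: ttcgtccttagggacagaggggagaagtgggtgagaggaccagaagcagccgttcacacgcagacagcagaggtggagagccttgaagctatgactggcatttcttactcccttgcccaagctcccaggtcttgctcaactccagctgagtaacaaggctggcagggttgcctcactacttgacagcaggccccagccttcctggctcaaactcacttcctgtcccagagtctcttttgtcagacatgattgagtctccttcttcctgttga
The gaining stretch of Smurf1 held 2 AP-1 matches and 5 CpG dinucleotides in 300 bases, with a GC content of 54%. The other Smurf1 stretch held no AP-1 match and 28 CpG dinucleotides, with a GC content of 76.3%. The printed stretches of Nadk and Ndel1 held no AP-1 match, and 0 and 3 CpG dinucleotides. Across the windows of all protein-coding genes, 9.50% held an AP-1 match in the 300 bases around their summit, and a match is a description of the letters.

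Libraries held 14825320 to 44875242 cut sites in 420 to 1338 barcodes with 2000 or more fragments. Uninjured and injured replicate 3 shared 34 of these barcodes, each with mostly the same fragments in both, and every other pair of libraries shared 0 to 4. A single barcode of injured replicate 2 held 1746401 fragments, or 14.7% of that library, with 5.63% of them in open regions away from starts against a median of 32.8%. 3 barcodes of injured replicate 1 and 1 of uninjured replicate 2 also exceeded 200000 fragments. Cells were clustered on regions away from starts, and the list of 8 horizontal basal cell markers stood highest in 4 of 9 clusters, which held 63.0 to 93.3% of a library's barcodes. These 4 clusters are pooled below and given no cell type name. Their leading genes included the stress keratins Krt16 and Krt6a in cluster 1, Il6 and the basal list gene Icam1 in cluster 2, and the airway genes Bpifa1, Reg3g and Adh7 in cluster 3. Cluster 6, with Reg3g and Cyp4b1 among its leading genes, had 168 of its 190 cells from uninjured replicate 3. The summed level of 6 sustentacular cell markers was 112 to 130 CPM in uninjured and 63.6 to 73.9 CPM in injured libraries. Of these markers Cbr2 (55.2 to 70.2 against 30.9 to 42.7 CPM), Ermn and Cyp2a5 were lower in every injured library, and Cyp2g1, Cyp1a2 and Sec14l3 overlapped. The 4 gland markers lay at 93.6 to 106 against 72.1 to 78.2 CPM, and the horizontal basal cell list itself at 396.3 to 530 against 337 to 395.8 CPM. Of the gland markers Sox9 and Aqp5 were lower in every injured library, and Muc5b and Sox10 overlapped. In the basal list Icam1 (90.6 to 133 against 44.1 to 52.7 CPM), Ngfr, Krt15 and Itgb4 were lower in every injured library. Krt5, Krt14 and Col17a1 overlapped, and Cav1 was higher, at 28.5 to 32.6 against 35.5 to 42.9 CPM. The part of these lists in the differences between groups was not tested. Olfactory sensory neuron-like cells made up 20.6% of injured replicate 3 against 2.24 to 8.59% elsewhere. The sums over all barcodes cannot tell a change in the mix of cells from a change within cells.

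At the threshold used here, more of these genes had 1 open window than had 2 or more, and it was usually the one furthest 5′. A window was called open where its mean density over the 6 libraries, in CPM per kb, reached 5 times the median density of 2 kb tiles or more. By this measure 1915 genes (53.7%) had 1 open window, 1315 (36.9%) had 2 or more, 303 had 3 or more, and 336 (9.42%) had none. At 3 times the median tile, 1701 genes had 2 or more. Without starts whose 5′ end the annotation marks as not found, 1047 of 2246 genes had 2 or more. Of the 1915 genes with 1 open window, 87.4% had it at the 5′-most start. Open windows made up 82.0% of the 5′-most windows but 35.3% of the windows further 3′, beside 73.3% for genes with a single window. A start of another gene lay in 25.6%, 5.63% and 24.3% of these windows, and its part in their openness was not tested. The genes with no open window include Ttn, which encodes the muscle protein titin, with 12 windows, the most of any member, at 0.0443 to 0.540 CPM per kb.

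The cytoskeletal genes Dst and Macf1 are examples of members with many annotated starts. Dst, which encodes dystonin, a linker of intermediate filaments to hemidesmosomes, had 5 open windows of 7, at 4.34, 6.04, 5.92, 8.57 and 4.39 CPM per kb along the gene, and its last windows lay at 0.217 and 0.195 CPM per kb. Macf1, which encodes a crosslinker of actin and microtubules, had 11 windows, of which those of Macf1-212 and Macf1-208 held 12.2 and 12.6 CPM per kb and the first held 0.0924 CPM per kb. Genes with 2 or more open windows made up 23 of 27 members of a list of cytoskeleton and adhesion genes, 20 of 33 transcription factors, 10 of 15 nuclear receptors, 9 of 9 ligands and cytokines, 21 of 28 receptors and signalling enzymes, 5 of 13 cell cycle and chromatin genes and 6 of 10 neuronal genes. These lists name genes known for alternative promoters, so their share is no independent measure.

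For each gene, the window with the most cut sites was paired with the fullest window at least 10 kb from it, and the 2 were called the 5′-side and the 3′-side window by their order along the gene. The starts of a pair lay a median of 29.3 kb apart, with quartiles of 16.2 and 64.8 kb, and 541 pairs lay over 100 kb apart. Both windows were open in 1224 pairs, the 5′-side window alone in 1809, the 3′-side window alone in 197 and neither in 336. In 1077 of the 3566 pairs at least 1 window also held a start of another gene. The 5′-side window was the more open in 81.5% of pairs, and in 80.5 to 81.4% in each library taken alone. Among the 1224 pairs with both windows open, the 2 transcripts had different annotated start codons in 572, the same one in 413, and no annotated start codon in at least 1 transcript in 239.

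CpG content went with openness. A window was called CpG-rich where the 300 bases around its summit had a GC content of at least 50% and a ratio of observed to expected CpG of at least 0.6, the summit being the centre of the 100 bases with the most cut sites. Of the 3013 CpG-rich windows 97.7% were open, and of the 6423 others 31.9%. CpG-rich windows made up 65.8% of the 5′-most and 11.4% of the further 3′ windows. The summit lay a median of 96 bp from the nearest annotated start in 5′-most windows and 384.5 bp in windows further 3′. Starts known only from transcripts whose 5′ end the annotation marks as not found gave 2331 windows, of which 13.7% were open. Of the windows further 3′ without this mark, 1760 of 3558 were open.

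**Figure D1:**
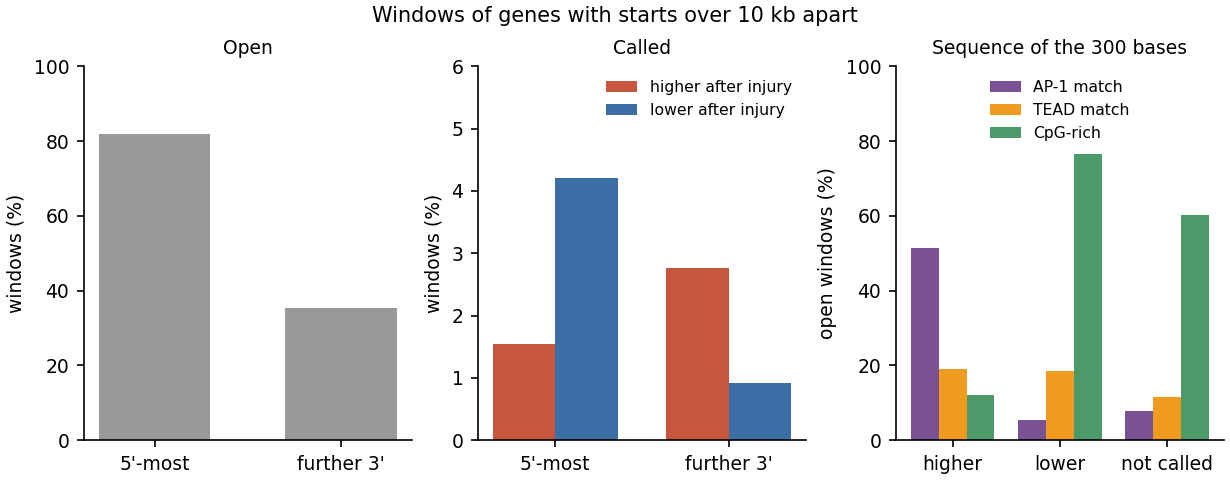
Bars give the share of windows in percent: on the left those that were open, in the middle those higher or lower after injury at an adjusted p of 0.05, and on the right the open windows with an AP-1 match, a TEAD match or CpG-rich sequence. Open windows made up 82.0% of the 5′-most and 35.3% of the further 3′ windows, and AP-1 matches stood in 51.3% of the open windows that were higher after injury and 5.39% of those that were lower; with scaling to 10 kb bins far more windows were called lower.

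After injury 217 windows were higher and 204 lower of 9436 tested (edgeR quasi-likelihood test, Benjamini-Hochberg adjusted p of 0.05). Over the windows of all protein-coding genes 4.56% were called, 1.99% higher and 2.57% lower, so the members' 2.30% and 2.16% lay near the background. In 38.7% of all windows no injured value fell within the uninjured range or the reverse. The calls differed by place: 55 of 3560 5′-most windows (1.54%) were higher and 150 (4.21%) lower, against 162 (2.76%) higher and 54 (0.919%) lower of 5876 windows further 3′. The split between higher and lower rests on the scaling, which here took the bulk of windows as unchanged. Scaling to 10 kb genome bins gave 179 higher and 2688 lower, with the median of all windows at -0.43 on the log2 scale in place of 0.05, and scaling to total cut sites gave 253 higher and 1717 lower with a median of -0.17. Calls also rested on single libraries: higher and lower windows numbered 58 and 20 if uninjured replicate 1 was dropped, 92 and 27 for uninjured replicate 2, 67 and 55 for injured replicate 1, 66 and 38 for injured replicate 2, and 350 and 354 for injured replicate 3. With the replicate number as a block in the fit they numbered 410 and 639.

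Of the higher windows 13 held under 20 cut sites in the uninjured libraries together, and 51 of the 189 open ones had an uninjured mean below the open threshold of 0.559 CPM per kb, so these passed through the group where they were high. Of the lower windows 3 had an injured mean below that threshold.

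Windows that were higher and windows that were lower differed in density, in sequence and in rank within their gene. The median density was 2.42 CPM per kb in open higher windows, 13.7 in lower ones and 6.26 in open windows not called. Their median log2 changes were 1.37, -0.39 and -0.06, and a start of another gene lay in 6.88%, 28.9% and 21.6%. Small changes are more easily called in fuller windows, and the part of density in the differences below was not tested. Of the 189 open windows that were higher, 51.3% held an AP-1 match around the summit, beside 5.39% of the 204 lower windows and 7.76% of open windows not called. A match to GGAATG, the core letters bound by TEAD factors, searched on both strands, stood in 19.0%, 18.6% and 11.5% of the same sets. CpG-rich windows made up 12.2% of the open higher windows, 76.5% of the lower ones and 60.1% of those not called. Over the 138 higher windows and the lower windows that were open in the mean of each group, AP-1 matches stood in 47.1% and 5.47% and CpG-rich sequence in 16.7% and 77.6%. The shares were close to these over the windows of all protein-coding genes, with AP-1 matches in 47.7% of open higher and 3.01% of open lower windows and CpG-rich sequence in 17.6% and 81.3%. Each of the 3566 genes has 1 most open window among the 9436 tested. Open windows numbered 4993, and 336 genes had none. Of the 204 lower windows, all of them open, 178 were the most open window of their gene, as were 62 of the 217 higher windows. For the other 155 higher windows, the most open window of the gene was not called in 145, lower in 8 and higher in 2. Windows that were not open had a median log2 difference of 0.49, and 0.31 without the barcodes of over 200000 fragments, with 28 called higher and 0 lower by edgeR, beside -0.06 for open windows.

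The 5 highest windows were chosen among called and open windows whose groups do not overlap. The window of Prkg2-204, a start of the gene for a cGMP-dependent protein kinase, held 4, 0 and 10 cut sites in the 3 uninjured libraries, by replicate number, and 176, 54 and 54 in the injured ones. The start of Ngef-204, from a gene for a guanine nucleotide exchange factor, held 5, 10 and 31 against 255, 148 and 102. That the groups stood apart in both was fixed by the choice. The Prkg2 window passed the rule of 20 cut sites only through the injured libraries, so its values are given with no test. The Ngef window, with an uninjured mean of 0.270 CPM per kb, counted as open only through the injured libraries and is likewise given with no test. The other windows among the 5 highest were 3′-side windows of Smurf1, Ikbkb and Lss, which are described with their pairs. Both named windows held an AP-1 match, and the main promoter of Prkg2, at 2.27 CPM per kb, had a log2 difference of 0.23 and was not called.

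The 5 lowest windows were likewise chosen among called and open windows whose groups do not overlap, so the separation of their groups was fixed by the choice. The 5′-most start of Scd3, a stearoyl-CoA desaturase gene, held 62, 105 and 44 cut sites in uninjured and 21, 10 and 28 in injured libraries, and fell by 2.14 on the log2 scale (edgeR adjusted p = 0.0166). Its injured mean, 0.279 CPM per kb, was below the open threshold of 0.559. It counted as open, and so was named, only through the uninjured libraries. The other window of Scd3 had a log2 difference of 0.82 and was not called. Atp6v1c2-207, the 3′-most start of a gene for a C subunit of the vacuolar proton pump, held 217, 533 and 246 cut sites in uninjured and 203, 122 and 131 in injured libraries and fell by 1.31 (edgeR adjusted p = 0.0146). The other 3 were the 3′-most start of Rffl (log2 change -1.64), from a gene for a RING-type ubiquitin ligase, Psmd13-210 (-1.44), from a gene for a proteasome subunit, and Muc2-204 (-1.51), from a mucin gene. The injured mean of Muc2-204, 0.478 CPM per kb, was also below the open threshold, so this window too was named only through the uninjured libraries. Muc2 was a leading gene of the sustentacular-like cluster, which held 5, 69 and 33 cells from the uninjured and 0, 0 and 2 from the injured libraries. With 500 bp on either side the Rffl and Muc2 windows had log2 differences of -0.81 and -0.83 and were not called. In the 4 clusters with the highest basal marker list the log2 difference of Muc2-204 was -0.88 and was no longer called, with an edgeR adjusted p of 0.278 and a range of 1.48e-04 to 0.513 over all alternatives. The other lower windows, of Scd3, Rffl, Psmd13 and Atp6v1c2 in this order, had log2 differences in these cells that were -2.18, -1.67, -1.47 and -1.26.

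Of 500 windows in the 7 gene lists, 39 (7.80%) were called, beside 4.56% over all genes. Cytoskeleton and adhesion genes, the list with the most windows, had 10 higher and 4 lower of 137 windows in 27 genes (10.2%), and the share called was 8.93% for transcription factors, 11.4% for nuclear receptors, 3.70% for ligands, 5.32% for receptors and signalling enzymes, 6.25% for cell cycle and chromatin genes and 4.26% for neuronal genes. The cytoskeleton and adhesion list had a median log2 difference of 0.14 beside 0.11 over all members. The higher ones included a start of Ank1, which encodes an ankyrin that ties membrane proteins to spectrin (Ank1-205, log2 change 2.20), and 2 starts of Svil, which encodes supervillin, an actin-binding membrane protein (2.13 and 1.61, the latter 0.94 and not called with 500 bp on either side). Ank1-205 and the latter Svil start had uninjured means of 0.392 and 0.326 CPM per kb, so they counted as open only through the injured libraries. Pard3-215, a start within the gene for the polarity protein Par3, held 1.35, 1.80 and 2.03 CPM per kb in uninjured and 7.41, 5.28 and 2.87 in injured libraries, a log2 change of 1.81. The 3′-side start of Lama3, the gene for a laminin chain of the basement membrane, held 12, 11.4 and 9.91 CPM per kb in uninjured and 20.6, 16.7 and 13.6 in injured libraries, a log2 change of 0.86. Its 5′ start was not called, at 0.18, and the 3′-side window also holds a start of another gene. Both open main starts of Macf1 were lower, with log2 changes of -0.41 and -0.49. Dst-220 was higher at 0.71 ± 0.18 (SE), whereas the other 6 windows of Dst were not called. With scaling to 10 kb bins the log2 changes of this Lama3 start and of Dst-220 were 0.35 and 0.20 and neither was called.

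Among 33 transcription factor genes, 3 windows were higher and 7 lower of 112. Mef2c-211, the 3′-most annotated start of a MADS-box factor gene, held 1.79, 3.00 and 2.55 CPM per kb in uninjured and 9.49, 7.17 and 4.76 in injured libraries, a log2 change of 1.76 ± 0.28 (SE). The other 2 higher windows were Runx2-204 (1.47), the distal start of a Runt-domain factor, and Tcf4-250 (0.63), a start of an E-protein, which was at 0.13 and not called with scaling to 10 kb bins. The lower windows were each the most open or the only open start of the E-protein and HMG-box factor genes Tcf3, Tcf12 and Tcf7l2, of Mef2a, of Runx1 and of Tead1, with log2 changes of -0.32 to -0.58, and the 3′-side start of Nfix, at -0.79. The Tead1 window also holds a start of another gene. Runx1 and Runx2 are paralogs with a distal and a proximal promoter each. In Runx1 the proximal window fell by 0.45 and the distal one, at 0.292 CPM per kb, was not open, while in Runx2 the distal window rose and the proximal one differed by -0.03 and was not called. The distal Runx2 window held 22, 39 and 47 cut sites in uninjured libraries. Its uninjured mean of 0.539 CPM per kb was below the open threshold of 0.559.

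Of 35 windows in 15 nuclear receptor genes and coactivators, 1 was higher and 3 lower. Ppargc1a, which encodes the coactivator PGC-1 alpha, had 1 window in each direction. Its 5′ start held 18.9, 16.5 and 14.9 CPM per kb in uninjured and 10.1, 8.61 and 11.2 in injured libraries, while its start 13.8 kb further 3′ held 2.79, 4.02 and 3.57 against 8.03, 5.73 and 4.40. Neither window's groups overlapped, with log2 changes of -0.52 and 1.03. With windows of 500 bp on either side the 5′ start had a log2 difference of -0.20, no longer called. Starts of Ppard and Rara, which encode receptors for fatty acids and for retinoic acid, were lower at -0.62 and -0.41. In the remaining lists, 1 window of 27 in ligand genes was higher (Il18-204, 1.52), and 3 of 94 in receptor and signalling genes (Arhgap24-204, 1.26, Pde4d-213, 1.33, and Ptprf-203, 1.36), against 2 lower (a start of Smad3, -0.39, and Map4k4-213, -0.32). With 500 bp on either side the log2 difference of Ptprf-203 was 0.27, and with scaling to 10 kb bins that of Arhgap24-204 was 0.76, and neither was called. The uninjured means of Il18-204 and Ptprf-203, 0.507 and 0.396 CPM per kb, lay below the open threshold of 0.559. Cell cycle and chromatin genes had 0 higher and 3 lower of 48 by edgeR (Dnmt3a, Hdac4 and Kdm2b, -0.33 to -0.45), and neuronal genes had 1 lower (a start of Mapt, -0.38) and 1 higher (a start of Nrxn3, 0.43, which turned to -0.07 with scaling to 10 kb bins).

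In 10 genes 1 window was higher and another lower: Abca4, Dhx32, Ifnar2, Mms19, Ndel1, Ppargc1a, Sipa1l3, Ssbp3, Tbc1d14 and Tfeb. These genes were singled out after their values were seen. In 205 of the 3566 genes at least 1 window was higher and in 198 at least 1 was lower. The share of genes with both was not counted over all genes, so the 10 are no measure of a trait of the members. The higher windows of Ifnar2, Mms19, Ndel1, Ssbp3 and Tbc1d14 had uninjured means of 0.246 to 0.495 CPM per kb. These lay below the open threshold of 0.559. The lower window of Mms19 also holds a start of another gene. In Tfeb, which encodes a master regulator of lysosome genes, the 5′-most start fell by 0.33 and the next start rose by 1.33. In Sipa1l3, which encodes a Rap GTPase-activating protein, the 5′ start fell by 0.36, and the next start held 7.92, 8.74 and 7.76 CPM per kb in uninjured and 12.8, 10.99 and 10.5 in injured libraries. Dhx32 had its 5′-most window higher, at 0.87, and its 3′-most window lower, at -1.07, though in the 5′-most window the groups overlapped, with 6.76 CPM per kb in uninjured replicate 3 and 6.52 in injured replicate 3.

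The ratio of the 2 windows of a pair was tested with a term for each library, so that depth and a change shared by both windows cancelled. A difference in background between libraries does not cancel. The median 2 kb tile held 0.0675, 0.107 and 0.0950 CPM per kb in uninjured and 0.123, 0.148 and 0.112 in injured libraries. The part of background in the shifts, which weighs most on the less open window of a pair, was not tested. Of 3566 pairs, 18 shifted toward the 3′-side window and 2 toward the 5′-side window (edgeR quasi-likelihood test, Benjamini-Hochberg adjusted p of 0.05 over 5785 pairs of all genes). Over all pairs tested, which include genes with starts 2 to 10 kb apart, 0.398% shifted toward the 3′-side and 0.0864% toward the 5′-side window, beside 0.505% and 0.0561% of the members. The per-library ratios of the groups did not overlap in any of the 20, nor in 21.3% of all member pairs. When only the 1224 pairs with both windows open were tested, 74 shifted toward the 3′-side and 13 toward the 5′-side window, beside 7.34% called among such pairs of all genes, 5.98% and 1.36% in these directions. The mean over all 6 libraries decided which windows counted as open, so a gain could itself bring a pair into this set. Both windows reached the threshold in the uninjured mean alone in 1149 of the 1224 pairs, in 50 of the 74 and in 9 of the 13, and in 10 of the 20 pairs called over all. In all 20 called pairs the window that gained was the less open of the 2.

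Leaving out replicate 1 or 2 of either group left 0 pairs called. At an unadjusted p of 0.05, edgeR then gave 377, 376, 313 and 324 of 3566 pairs toward the 3′-side window. Toward the 5′-side window it gave 75, 71, 62 and 62, in the order uninjured 1 and 2, then injured 1 and 2. With all 6 libraries these counts were 423 and 89. They were not taken over the pairs of all genes, so they are no measure of a trait of the members. Called pairs numbered 3 and 1 with uninjured replicate 3 left out, and 36 and 7 with injured replicate 3 left out. The median log2 ratio of the 5′-side over the 3′-side window differed by -0.27 between groups over all member pairs, beside -0.26 over the pairs of all genes. Among members it differed by -0.49 where only the 5′-side window was open, by -0.11 where both were and by 0.51 where only the 3′-side window was. Scaling the columns of the pair table by TMM, an alternative chosen after seeing the data, moved the median to 0.10 and gave 17 pairs toward the 3′-side and 27 toward the 5′-side window. At an unadjusted p of 0.05 edgeR gave 179 and 304 under it. Of the 20 pairs, 16 were called under that scaling too, and all kept their direction.

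**Figure D2:**
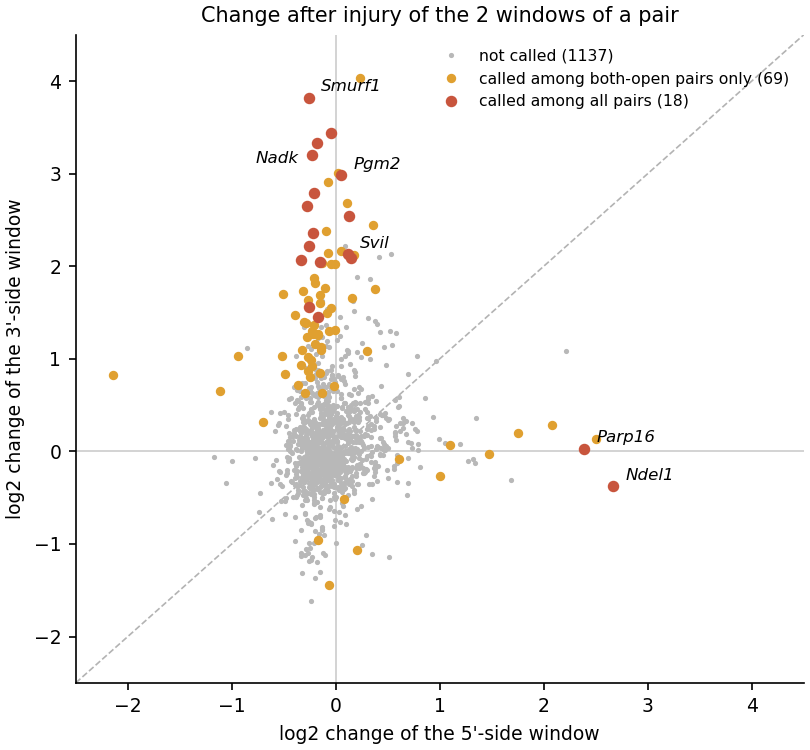
Each point is 1 of the 1224 pairs with both windows open, with the log2 change of the 5′-side window on the x axis and of the 3′-side window on the y axis, both on a scale that takes the bulk of windows as unchanged; colours mark the pairs called. The pairs called toward the 3′-side window lie mostly near 0 on the x axis and above 1 on the y axis, with Smurf1 at 3.82 on the y axis, while Ndel1 and Parp16 lie at 2.66 and 2.39 on the x axis.

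In the 20 called pairs the window that gained was in each case the less open one. Of the gaining windows 19 were themselves called higher, and of the partners 2 were called lower, those of Mms19 and Ndel1. An AP-1 match stood in 12 gaining windows and in 0 of the partners. None of the gaining windows was CpG-rich, against 17 of the partners, beside the 11.4% of windows further 3′ and 65.8% of 5′-most windows that were CpG-rich over all members. The summit lay within 250 bp of an annotated start in 4 gaining windows, with a median distance of 473 bp, and in 17 partners, with a median of 100.5 bp, beside the medians of 384.5 and 96 bp over all windows further 3′ and 5′-most. The annotation gave a complete start for 11 gaining windows. The other 9, including those of Smurf1, Lss, Ikbkb and Pgm2, rest on transcripts whose 5′ end was marked as not found, so the annotated start need not be a true start of transcription. The same mark stood on transcripts of windows described singly, namely Mef2c-211, Ngef-204, Pard3-215, Pde4d-213, Ptprf-203, Psmd13-210 and a start of Svil.

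Among the named pairs, Smurf1 showed the largest change of the log2 ratio in the main fit. Its 5′-side window held 322, 817 and 853 cut sites in uninjured and 725, 377 and 743 in injured libraries. The 3′-side window, 67.8 kb downstream at Smurf1-205 and within exon 6 of the 18 exons of the longer transcript, held 8, 18 and 26 against 511, 180 and 155. Its share of the pair was 2.42, 2.16 and 2.96% in uninjured and 41.3, 32.3 and 17.3% in injured libraries, or 2.51% ± 0.408 against 30.3% ± 12.2 (SD, n = 3 each). The choice of named pairs required groups that do not overlap. Among the injured libraries, replicate 1 was highest and replicate 3 lowest. The log2 ratio of the 3′-side over the 5′-side window rose by 4.01 ± 0.51 (SE, edgeR adjusted p = 0.019). Pairs were tested whether or not their windows were open, but were named only with both open over the 6 libraries, and the uninjured mean of this 3′-side window, 0.318 CPM per kb, was below the threshold of 0.559. The summit over all libraries lay 597 bp upstream of the annotated start, within the stretch printed above, and the highest 50 bp bin of the injured profile lay at -775 bp, just outside it. With windows of 500 bp on either side, which leave that summit out, the log2 ratio differed by -2.73 as 5′-side over 3′-side and was not called (edgeR adjusted p = 0.108, range over the alternatives 4.93e-08 to 0.140).

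Among the 12 named pairs, Nadk had the gaining window with its summit closest to the annotated start. Its 3′-side start, 18.4 kb downstream in intron 3, held 27, 67 and 134 cut sites in uninjured and 1208, 537 and 576 in injured libraries, while the merged 5′-side window held 792, 1589 and 1604 against 1583, 780 and 1525. The share of the 3′-side window was 3.30, 4.05 and 7.71% in uninjured and 43.3, 40.8 and 27.4% in injured libraries. Its density in injured replicates 1 and 2 (13.5 and 11.3 CPM per kb) exceeded that of the 5′-side window (9.55 and 8.91). The log2 ratio rose by 3.51 ± 0.39 (SE, edgeR adjusted p = 0.0178), and the summit stood 56 bp downstream of the start, just after the stretch printed above. The transcripts of the 2 starts have different annotated start codons.

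The next 4 pairs toward the 3′-side window belong to metabolism, NF-kB signalling and vesicle sorting. In Lss, which encodes lanosterol synthase of the cholesterol pathway, the 3′-side window held 0, 14 and 9 cut sites in uninjured and 150, 54 and 48 in injured libraries, a share of 0, 1.09 and 0.785% against 10.99, 7.93 and 4.44%. In Ikbkb, which encodes the IKK beta kinase that frees NF-kB, the share was 2.81, 1.50 and 1.83% against 24.2, 17.7 and 12.04%. In Ap1b1, which encodes a subunit of a clathrin adaptor, it was 2.97, 2.70 and 4.48% against 29.0, 21.5 and 17.3%. The choice of named pairs fixed that the groups do not overlap, and each injured library in these pairs was above 4%. In Pgm2, which encodes a phosphoglucomutase, the 3′-side window in exon 12 of 14 held 28, 110 and 67 cut sites against 1146, 355 and 362, a share of 7.16, 13.3 and 7.69% against 56.6, 43.7 and 29.2%. The log2 ratios rose by 3.46 ± 0.63, 3.40 ± 0.48, 3.02 ± 0.46 and 2.89 ± 0.48 in that order (SE, edgeR adjusted p = 0.0467, 0.019, 0.019 and 0.0337). The gaining windows of Lss, Ikbkb and Ap1b1, with uninjured means of 0.119, 0.232 and 0.265 CPM per kb, counted as open, and so were named, only through the injured libraries. Windows of 500 bp on either side gave Lss a log2 ratio of 5′-side over 3′-side of -0.92, Ikbkb -2.54 and Pgm2 -2.89, none of them called (edgeR adjusted p = 0.638, 0.116 and 0.0659; highest over the alternatives 0.638, 0.140 and 0.169). The call of Lss was also lost without the barcodes of over 200000 fragments (edgeR adjusted p = 0.0594, lowest over the alternatives 9.61e-04).

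A further 4 named pairs shifted toward the 3′-side window by smaller amounts. In Rhbdl2, which encodes a rhomboid protease of the cell surface, the 3′-side share was 3.82, 3.42 and 5.91% in uninjured and 22.2, 22.6 and 16.5% in injured libraries. In Cds2, which encodes an enzyme making CDP-diacylglycerol for phosphatidylinositol, it was 1.68, 2.31 and 2.48% against 10.3, 9.97 and 7.82%. Injured libraries differed less among themselves here than in Smurf1. In Svil the start 124.8 kb downstream, in intron 3, had a share of 6.66, 6.17 and 10.3% against 26.6, 26.9 and 22.6%. In Cpt1a, which encodes the enzyme that admits long-chain fatty acids to mitochondria, the start in intron 1 had a share of 9.44, 9.42 and 13.6% against 38.4, 31.2 and 27.01%. The log2 ratios rose by 2.50 ± 0.35, 2.19 ± 0.32, 2.05 ± 0.31 and 1.97 ± 0.34 (SE, edgeR adjusted p = 0.019, 0.019, 0.019 and 0.0415). The gaining window of Cds2, with an uninjured mean of 0.337 CPM per kb, was also open only through the injured libraries. In Rhbdl2, Svil and Cpt1a the 2 transcripts share their annotated start codon, in Cds2 they differ in it, and all 4 gaining windows held an AP-1 match. With 500 bp on either side the log2 ratios of 5′-side over 3′-side in Rhbdl2, Cds2 and Cpt1a were -1.46, -1.88 and -1.85 and none was called (edgeR adjusted p = 0.261, 0.107 and 0.0949; highest over the alternatives 0.261, 0.140 and 0.225). Pkp4, which encodes an armadillo protein of cell junctions, was called for its list, with a share of 3.68, 3.48 and 3.75% against 23.1, 17.8 and 10.4% and a rise of 2.39 ± 0.36 (SE, edgeR adjusted p = 0.019).

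**Figure D3:**
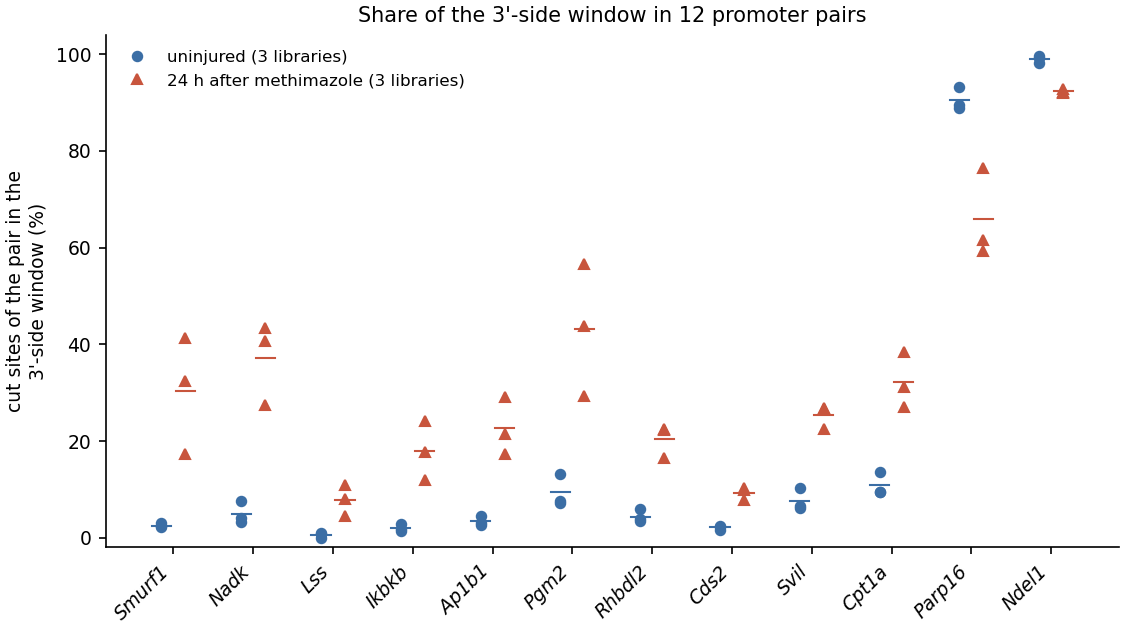
Each point is 1 library, the y axis gives the percent of the pair's cut sites that fell in the 3′-side window, circles are uninjured and triangles injured libraries, and bars are means of 3. In Smurf1 the uninjured libraries lie at 2.16 to 2.96% and the injured ones at 17.3 to 41.3%, and in Parp16 the order is the opposite, with 88.8 to 93.1% above 59.3 to 76.5%.

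Ndel1 and Parp16 shifted the other way. In Ndel1 the 5′-side window held 6, 6 and 28 cut sites in uninjured and 130, 62 and 93 in injured libraries, while the main window 18.7 kb downstream held 787, 1514 and 1534 against 1471, 731 and 1199. In density the 5′-side window went from 0.0914 to 0.443 CPM per kb up to 1.30 to 1.45, and the main window from 22.0 to 25.3 down to 14.7 to 16.0. The share of the main window was 99.2, 99.6 and 98.2% against 91.9, 92.2 and 92.8%, so the main start kept over 90% of the cut sites of the pair in every library. The log2 ratio of the 5′-side over the 3′-side window rose by 3.12 ± 0.46 (SE, edgeR adjusted p = 0.019), and the 5′-side window, with an uninjured mean of 0.246 CPM per kb, counted as open only through the injured libraries. Within the 4 clusters with the highest basal list it was 3.61 and was not called (edgeR adjusted p = 0.0762, range over the alternatives 9.01e-05 to 0.140). The gained cut sites peaked about 125 bp upstream of the start, in the sequence printed above.

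In Parp16, which encodes an ADP-ribosyltransferase of the endoplasmic reticulum membrane, the 5′-side window held 56, 97 and 153 cut sites in uninjured and 911, 484 and 384 in injured libraries. The 3′-side window, in intron 1 of Parp16-205, held 479, 1313 and 1219 against 1463, 704 and 1253. Its share was 89.5, 93.1 and 88.8% in uninjured and 61.6, 59.3 and 76.5% in injured libraries. The log2 ratio of the 5′-side over the 3′-side window rose by 2.31 ± 0.38 (SE, edgeR adjusted p = 0.0294). The summit within the window lay 928 bp downstream of the start, and the highest 50 bp bin of the profile lay at 1325 bp, outside the window, with 43.0 CPM per kb in uninjured and 47.9 in injured libraries. With 500 bp on either side the pair was not called (log2 ratio 2.06, edgeR adjusted p = 0.125, range over the alternatives 3.81e-05 to 0.179).

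**Figure D4:**
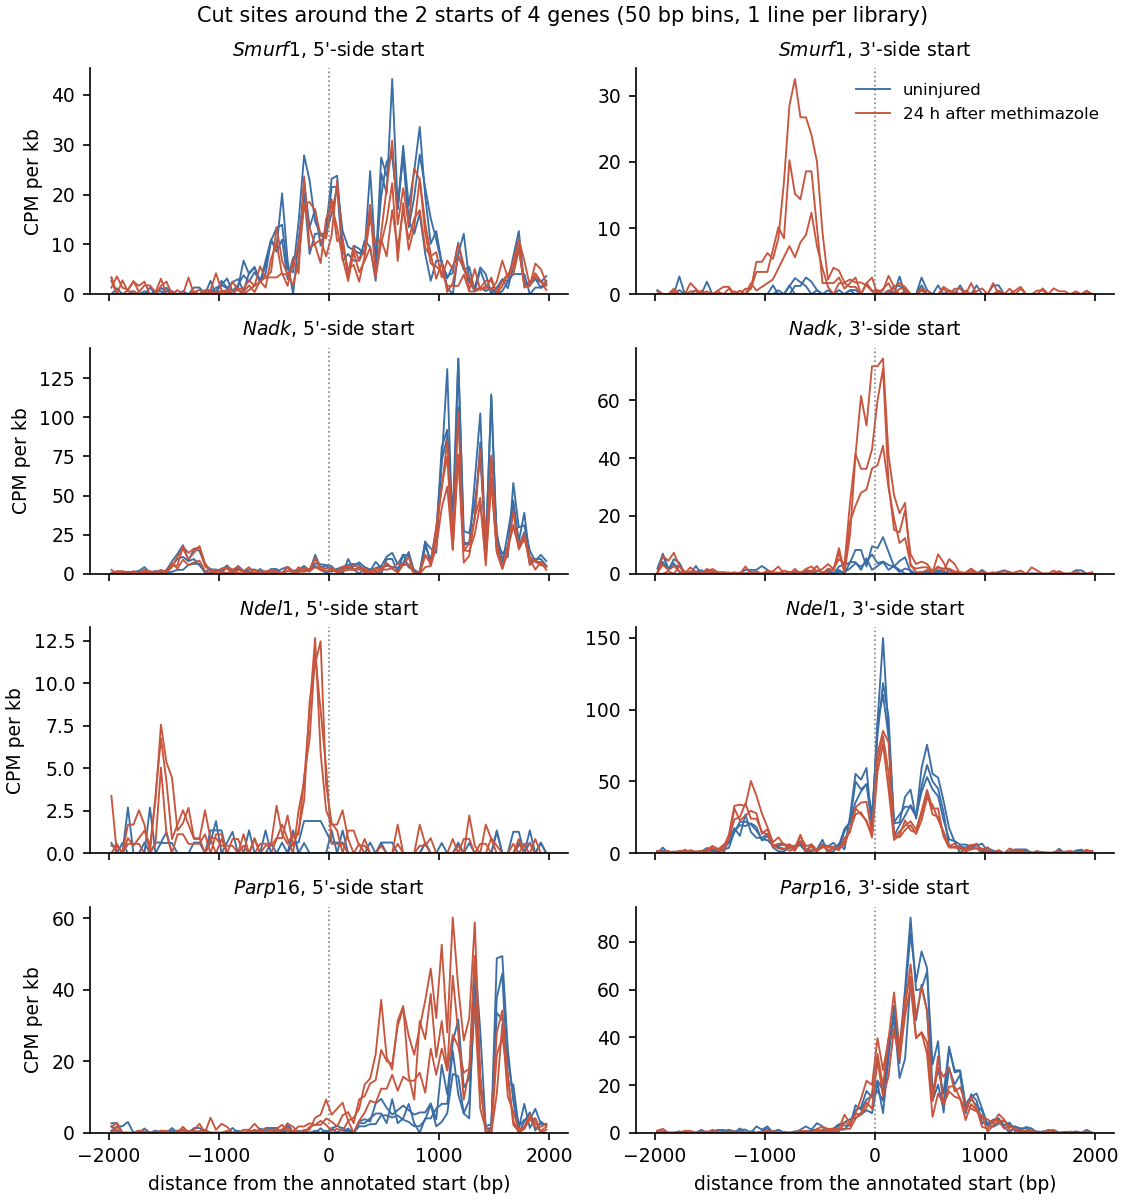
Cut sites in CPM per kb in 50 bp bins around the 5′-side (left) and 3′-side (right) start of 4 genes, against the distance from the annotated start in bp, with 1 line for each of 6 libraries. The injured libraries rise about 775 bp upstream of the 3′-side start of Smurf1, at the 3′-side start of Nadk, about 125 bp upstream of the 5′-side start of Ndel1 and over a broad stretch downstream of the 5′-side start of Parp16, where the highest bin, at 1325 bp, reaches 43.0 CPM per kb in uninjured and 47.9 in injured libraries and lies outside the counted window.

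The other 7 called pairs, which lay outside the naming rule because a window was not open or held the start of another gene or the change ranked lower, all shifted toward the 3′-side window. They included Ip6k1 (log2 ratio of 5′-side over 3′-side -2.92), Mms19 (-2.37), Uck2 (-2.33), Neo1 (-1.85), Cblb (-1.73) and Arhgap21 (-1.58). Uck2, which encodes a kinase that salvages uridine and cytidine, went from shares of 12.2, 10.3 and 10.1% to 45.2, 38.7 and 30.02%. In Cblb, which encodes a ubiquitin ligase, both groups were low, with shares of 0.237, 0.378 and 0.440% against 1.12, 1.18 and 1.34%, and the gaining window by itself was not called.

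Of the 86 pairs of listed genes with both windows open, 10 were called when only such pairs were tested, 9 of them toward the 3′-side window, beside 7.34% called over all genes. Both windows reached the open threshold in the uninjured mean alone in 80 of the 86 and in 6 of the 10, the exceptions among the 10 being Dock1, Nfkb1, Ptprf and Runx2. With injured replicate 2 left out, edgeR called 0 of these pairs in either direction. Besides Svil and Pkp4 these were Pard3, Dock1, which encodes an exchange factor for Rac, Ptprf, a receptor tyrosine phosphatase, Ppargc1a, Mef2c, Nfkb1, which encodes a precursor of the NF-kB subunit p50, and Tcf4. Pard3 had a 3′-side share of 6.32, 8.85 and 8.57% in uninjured and 32.6, 27.1 and 16.0% in injured libraries. In Mef2c the share was 19.8, 26.1 and 31.7% against 52.4, 44.9 and 43.9%, and in Nfkb1 2.68, 4.22 and 3.95% against 9.001, 9.09 and 7.07%. Runx2 shifted toward its 5′-side window, with a 3′-side share of 93.8, 95.5 and 95.1% against 86.5, 88.7 and 85.3%. None of the groups overlapped in these 4 genes. In the fit over all pairs these 8 genes had edgeR adjusted p values of 0.0606 (Pard3) to 0.211 (Tcf4).

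The shares also differed between clusters of cells, and these are values without a test, since the clusters were made from the same cells. Cluster 1 held 1386 cells, 988 of them from injured replicate 1, 247 from injured replicate 2, 146 from injured replicate 3 and 5 from uninjured libraries, and cluster 2 held 1107 cells, of which 335, 592 and 158 came from the uninjured libraries. Both belong to the 4 clusters with the highest basal marker list. The 3′-side share of Smurf1 was 46.4% in cluster 1 and 2.30% in cluster 2. In cluster 1 it was 48.5, 42.5 and 43.9% in injured replicates 1 to 3, closer together than the 41.3, 32.3 and 17.3% over all barcodes. The part of the differing shares of cluster 1 in the injured libraries was not tested.

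Cluster 3 held 972 cells from all 6 libraries, 63, 112 and 163 from uninjured and 248, 84 and 302 from injured ones, so both groups gave values within 1 cluster. The 3′-side share of Nadk there was 10.5, 4.11 and 9.58% in uninjured and 26.9, 25.4 and 25.9% in injured libraries. For Pgm2 it was 2.63, 22.0 and 8.26% against 44.6, 44.4 and 29.5%. In both genes every injured library lay above every uninjured one. For Smurf1 the share was 0, 3.70 and 4.18% against 6.47, 8.77 and 4.39%, from 71 to 296 cut sites a library, and for Parp16 82.4, 90.7 and 87.9% against 84.0, 78.9 and 86.9%. Of the 12 named pairs, which were chosen for groups that do not overlap over all barcodes, these cells included, the groups overlapped within cluster 3 in Parp16, Lss, Rhbdl2 and Cds2. In Rhbdl2 the shares were 13.9, 7.09 and 3.69% against 12.9, 8.23 and 5.54%.

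In most pairs the more open window was the same in the neuron-like or sustentacular-like cells as in the 4 pooled basal marker clusters. Among the 1119 pairs with both windows open and 100 or more cut sites in both sets of cells, the more open window in the 302 olfactory sensory neuron-like cells, 154 of them from injured replicate 3, was not that of the 4 basal marker clusters in 199 pairs (17.8%). The 3′-side share differed by 20 percentage points or more in 301 of them. For the 109 sustentacular-like cells, the more open window differed in 70 of 750 pairs (9.33%) and the share by 20 points or more in 67. The genes named next were chosen after their values were seen.

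Met, which encodes the receptor for hepatocyte growth factor, had 0.821% of its pair in the 3′-side window in the basal marker clusters and 78.1% in the neuron-like cells, with 292 cut sites in the latter. The neuron-like share was 61.5 to 82.8% in the 3 libraries with 20 or more cut sites and 68.1% without injured replicate 3, against 0.352 to 2.05% over 6 libraries in the basal marker clusters. Prune2 went from 11.6 to 77.1%, Cdh23, which encodes a cadherin of sensory hair cells, from 6.01 to 77.7%, and Lingo2, which encodes a leucine-rich repeat protein of neurons, from 27.4 to 82.7%. Their ranges over libraries did not overlap between the sets of cells. Shares were lower in neuron-like cells in Trpm3, which encodes a heat-gated cation channel, with 82.4% against 5.24%, in Kalrn, which encodes an exchange factor of synapses, with 92.8% against 24.3%, and in the ubiquitin ligase gene Trim2, with 69.7% against 8.99%.

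In sustentacular-like cells Abl2, which encodes a tyrosine kinase acting on actin, had 2.80% of its cut sites at the 3′-side start against 53.8% in the basal marker clusters. By library the latter share was 31, 32.6 and 49.1% in uninjured and 65.6, 59.0 and 61.6% in injured replicates, and all but 2 of the sustentacular-like cells came from uninjured libraries. Within the basal marker clusters the share of Abl2 was 64.1% in cluster 1 and 27.6% in cluster 2. Ltbp4, which encodes a protein that binds latent TGF-beta, had 73.6% against 31.3%, and Frmd4b, which encodes a scaffold of epithelial polarity, 89.6% against 49.7%. In the uninjured libraries alone the basal cluster shares were 26.9 to 29.1% for Ltbp4 and 42.3 to 47.8% for Frmd4b. These values rest on 107 to 159 cut sites in the sustentacular-like cells, and only 2 uninjured libraries gave 20 or more each.

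**Figure D5:**
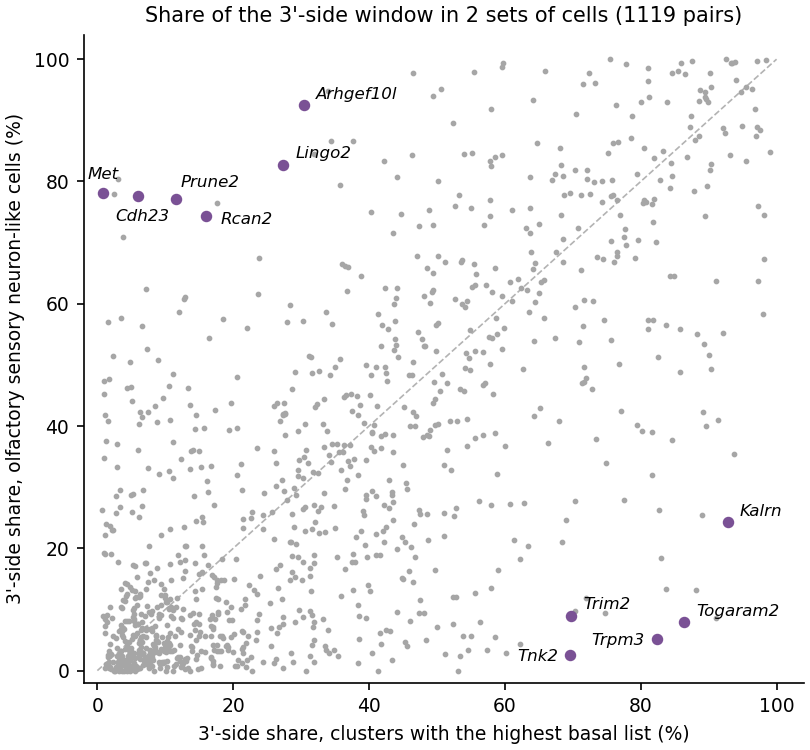
Each point is 1 of 1119 promoter pairs, with the percent of its cut sites in the 3′-side window in the 4 clusters with the highest basal marker list on the x axis and in the olfactory sensory neuron-like cells on the y axis. Most pairs lie along the diagonal, and named pairs lie far from it, such as Met at 0.821 and 78.1% and Trpm3 at 82.4 and 5.24%.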

How the data were processed

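The files used were the deposited fragment lists of 6 single-cell ATAC-seq libraries, made with Cell Ranger 2.0.0 on mm10 per the submitters' processing notes. As deposited by the authors, each line gives a deduplicated fragment with its barcode and a raw count of read pairs, with no normalization. The fragment lists have no header, and this reading comes from their columns and values. Both ends of each fragment were counted as cut sites over barcodes with 2000 or more fragments. Windows came from GENCODE M21, and sequence from the RefSeq copy of GRCm38, the assembly that mm10 names. Libraries held 14825320 to 44875242 cut sites, and counting error is smallest in the fullest windows.

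Counts were tested with edgeR 4.0.16 (robust quasi-likelihood fit) in R 4.3.3, windows with TMM factors over 28501 windows of all genes, pairs with a term for each library. Tested on simulated data with 6 libraries, the window fit recovered 48% of 200 windows changed by 1 log2 unit and 68% of 200 changed by 2, with 15 false calls of 27852, and the pair fit 15.5% and 58.5%, with 3 false calls of 5785. DESeq2 1.42.0 and diffSpliceDGE, other scalings, filters, window widths and cell sets were alternatives. Cells were clustered on 500 bp tiles away from starts (TF-IDF, 30 components, Leiden), with no doublet caller. A cluster's name rests on listed markers, counted over gene bodies and 2000 bp upstream. Named pairs were the called ones with both windows open, no start of another gene and no overlap between groups, up to 10 in each direction by size of change; named windows were the 5 highest and 5 lowest under the same conditions, and every called pair and window of the gene lists. The members and lists were chosen with earlier results of these data known. P-values measure the spread between the 3 libraries of a group. Peak matrices were not used. One called pair is not reported here.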

Additional observations from a re-analysis of the deposited data

How the results depend on the processing

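Counts of called windows and pairs moved with most settings, and the cause was not tested beyond what each setting leaves out. Higher windows numbered 217, with 58 to 350 when 1 library was left out, 334 by DESeq2 and 341 in the 4 clusters with the highest basal list. Lower windows numbered 204, with 20 to 354 when 1 library was left out, 2688 with scaling to 10 kb bins, 1717 with scaling to total cut sites, 121 with edgeR's own filter on low counts, 75 over open windows only, 100 with 500 bp on either side and 96 without starts marked as not found. Pairs toward the 3′-side window numbered 18, with 0 to 36 when 1 library was left out, 68 by DESeq2, 114 by diffSpliceDGE, 74 over pairs with both windows open and 9 with 500 bp on either side. Pairs toward the 5′-side window numbered 2, with 0 to 7 when 1 library was left out, 10 by DESeq2, 31 by diffSpliceDGE, 13 over pairs with both windows open, 1 with 500 bp on either side, 1 in the basal marker clusters and 27 with TMM over the pair table. Over pairs with both windows open, the counts of 74 and 13 went from 0 to 128 and from 0 to 26 when 1 library was left out, were 47 and 36 with TMM over the pair table, and 21 shifted toward the 5′-side window in the basal marker clusters.

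Same-numbered libraries of the 2 groups correlated at 0.088, 0.236 and 0.353 in their deviations. Of libraries with different numbers, uninjured replicate 2 and injured replicate 1 correlated at 0.316 and all others at -0.397 to -0.039. The main fits held no term for the number, which goes with the age of the mice in both groups. An effect shared by same-numbered libraries was not tested. With the replicate number as a block, 410 windows were higher, 639 lower and 40 pairs shifted toward the 3′-side window. All 20 called pairs kept their direction in each alternative run for them. Windows of 500 bp on either side ended 13 of these calls. Leaving out barcodes of over 200000 fragments ended 5 of these calls, and leaving out copied barcodes ended 0. Of 49 named or listed windows, 39 lost their call without uninjured replicate 1, 35 without uninjured replicate 2, 11 without uninjured replicate 3, 29, 37 and 2 without injured replicates 1 to 3, and 17 with 500 bp on either side, and 1 reversed, a start of Nrxn3, at -0.0706 with scaling to 10 kb bins. The 5′-side window was the more open in 81.5% of pairs, 80.7% in the basal marker clusters and 73.0% without starts marked as not found. Genes with 2 or more open windows numbered 909 to 1701 over the settings tried, and 1047 of only 2246 genes without starts marked as not found. Depth limits the windows near the rule's 20 cut sites most.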
